A study of Mus musculus with 26 samples.

Results

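The 10 genes described here encode the core of the DNA damage and S-phase checkpoint: Atr, Atrip, Chek1, Cdc25a, Wee1, Atm, Chek2, Trp53, Mdm2 and Cdkn1a. They were chosen by name, and all 10 of 10 symbols matched 1 identifier each among the 55487 genes of the TPM table. TPM gives the share of an RNA among the RNAs of a cell after division by its length, so levels of different genes can be set side by side. RNA and DNA replication state were measured by scRR-seq in the same single blastomeres of C57BL/6 mouse embryos made by in vitro fertilization and dissociated by hand at the 8-cell stage. The data covered 9 cells that had received no treatment: cells 1, 6 and 7 of embryo 1, and cells 2, 3, 5, 6, 7 and 8 of embryo 2. With 1 embryo on each side no difference was tested, and SDs describe the spread between cells.

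Progress through S phase is watched by a pair of kinases related to each other. ATR, held on single-stranded DNA at stalled forks by its partner ATRIP, phosphorylates CHK1, which leads to destruction of the phosphatase CDC25A, while the kinase WEE1 adds the inhibitory phosphate that CDC25A removes from cyclin-dependent kinases. ATM answers to double strand breaks, acts through CHK2, and together with ATR stabilizes p53 (Trp53), whose targets include its own ubiquitin ligase Mdm2 and the CDK inhibitor p21 (Cdkn1a). Mouse embryos without Atr or Chek1 die early in development, and cleavage-stage blastomeres are known for short gap phases. Most of this regulation acts on the proteins, which were not measured here.

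The cells of the 2 embryos differed in replication. In embryo 1, 3.54%, 0.927% and 0.0039% of the 40-kb bins with a state were replicated in cells 1, 6 and 7, and in embryo 2 the score ran from 62.4% in cell 6 to 80.5% in cell 7. Mitochondrial genes held 4.28 to 6.77% of the TPM in embryo 1 cells and 5.98 to 18.2% in embryo 2 cells, and Xist, the RNA of the inactive X chromosome, stood at 140.0 to 181 TPM in embryo 1 and at most 0.90 TPM in embryo 2. A cell with the same copy number throughout can be in G1 or in G2/M, so the score places embryo 1 cells outside S phase without telling these phases apart, and a locus scored unreplicated there may be in either. Embryo, replication state and sex-linked RNA therefore divide these cells in the same way and cannot be told apart. The closing library numbers fell into the range 11 to 17 (embryo 1 cell 1, embryo 2 cells 2 and 3) and the range 20 to 25 (the other 6 cells), and cells of the former had 12411 to 13319 genes above 1 TPM against 11058 to 11960 in the latter. Of 10 markers of the 8-cell embryo, 8 were above 1 TPM in every cell, among them Dppa3 (1138 to 2169 TPM) and Pou5f1 (117 to 346 TPM), and the others were Sox2 (at most 0.60 TPM) and Cdx2 (at most 9.80 TPM). Of 12 markers of cumulus and other somatic cells, 6 were listed at 0 in all 9 cells, including Has2, Fshr, Amh and Cyp19a1, and only Pecam1 exceeded 1 TPM in every cell. The cumulus marker Ptx3 had 6.13 TPM in embryo 2 cell 6 and Col3a1 1.95 TPM in embryo 1 cell 6, each at 0 in the other cells. The summed TPM of these 12 was 9.63 to 20.9 in embryo 1 and 4.11 to 35.8 in embryo 2.

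All 10 checkpoint genes were above 1 TPM in all 9 cells, against 52.9% of the 13648 genes with a mean above 1 TPM. Their 90 values ran from 2.50 TPM (Atr, embryo 2 cell 7) to 649.8 TPM (Chek2, embryo 1 cell 1), and their sum took 0.056 to 0.098% of the RNA of a cell. By mean TPM over the 9 cells the order was Chek2, 461 ± 132 (SD, n = 9 cells), Atrip, 65.9 ± 22.8, Cdc25a, 41.7 ± 15.4, Mdm2, 40.2 ± 20.8, Chek1, 30.4 ± 11.4, Cdkn1a, 28.9 ± 22.3, Atm, 27.1 ± 7.33, Trp53, 19.99 ± 9.44, Wee1, 18.8 ± 14.2, and Atr, 7.50 ± 6.06. Chek2 exceeded Atrip in 9 of 9 cells and Atrip exceeded Cdc25a in 7 of 9. From Cdc25a down to Atr, neighbours in this order differed by less than the larger of their SDs. Cdc25a exceeded Mdm2 in 3 of 9 cells although its mean was higher, and Wee1 exceeded Atr in 5 of 9. Chek2 ranked 345 among the 13648 genes and Atr 7611.

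**Figure D1:**
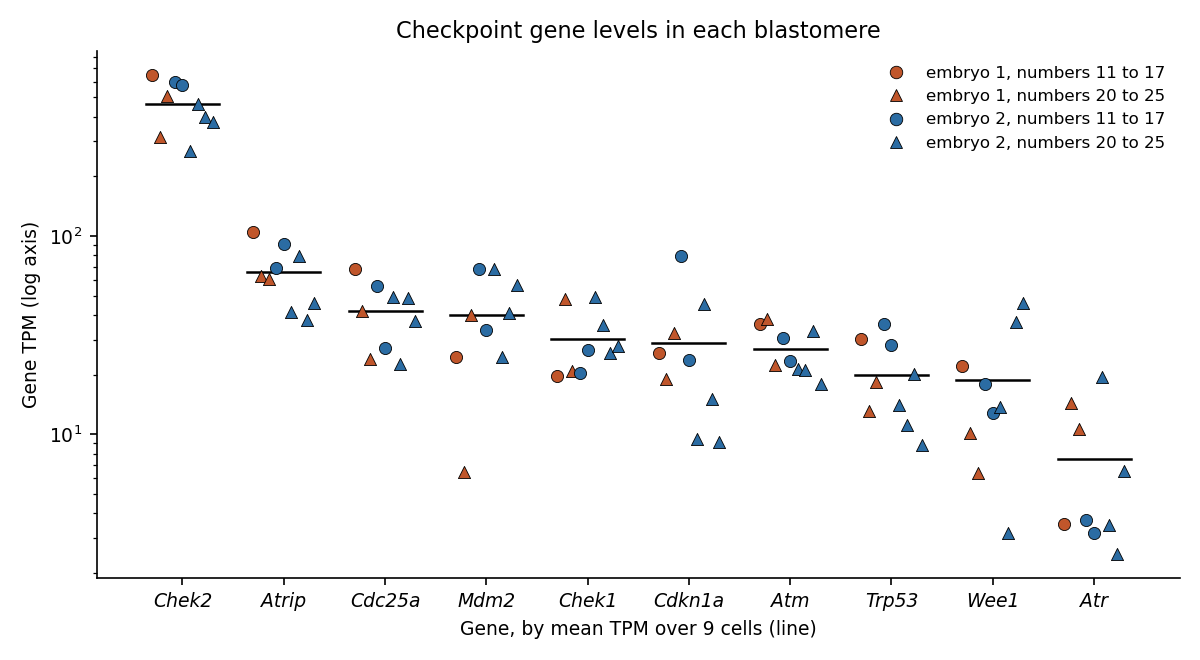
Gene TPM (log axis) of the 10 checkpoint genes in each of the 9 blastomeres, with circles for library numbers 11 to 17, triangles for 20 to 25, orange for embryo 1, blue for embryo 2 and a line at the mean over 9 cells. Chek2 lies above the other 9 genes in every cell, and the embryos overlap for every gene.

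The ATR arm began with its kinase at the lowest level of the 10 genes. Atr (ENSMUSG00000032409.15, chr9:95857597-95951781, plus strand, mm10) had 3.52, 14.4 and 10.7 TPM in cells 1, 6 and 7 of embryo 1, and a lowest, median and highest value of 2.50, 3.59 and 19.6 TPM in embryo 2. The high cells were embryo 2 cell 5 and embryo 1 cells 6 and 7, and the embryos overlapped. Its coding model shares exon bases with the antisense genes 1700065D16Rik and Gm16794, at most 0.66 TPM in any cell.

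Atrip (ENSMUSG00000025646.9, chr9:109057933-109074124, minus strand), which encodes the subunit that brings ATR to RPA-coated DNA, had 105, 62.7 and 60.7 TPM in embryo 1 cells 1, 6 and 7, and 37.7, 57.4 and 90.8 TPM as lowest, median and highest in embryo 2. By gene level it stood 2.13-fold to 29.8-fold above Atr within a cell. Embryo 1 cell 1 was highest and embryo 2 cell 7 lowest. On coding models, described below, Atrip was below Atr in embryo 1 cell 6 and embryo 2 cells 5, 6 and 8, and above it in the others. The 3′ end of Atrip holds the exonuclease gene Trex1 on the same strand, which shares 1147 exon bases with it. Trex1 was listed at 0 to 4.10 TPM, so reads there could have been assigned to either gene.

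Chek1 (ENSMUSG00000032113.16, chr9:36708482-36727065, minus strand), the effector kinase of ATR, had 19.7, 47.9 and 20.95 TPM in embryo 1 and 20.3, 27.2 and 49.2 TPM as lowest, median and highest in embryo 2. The 2 high cells, cell 6 of embryo 1 and cell 5 of embryo 2, came from different embryos.

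Cdc25a (ENSMUSG00000032477.14, chr9:109875579-109893895, plus strand), the phosphatase that CHK1 marks for destruction, had 67.9, 42.0 and 24.1 TPM in embryo 1, and 22.6, 43.0 and 55.8 TPM as lowest, median and highest in embryo 2. Wee1 (ENSMUSG00000031016.9, chr7:110122046-110143286, plus strand), its opponent, had 22.01, 10.1 and 6.41 TPM in embryo 1 and 3.18, 15.9 and 46.0 TPM in embryo 2. Wee1 varied most of the 10 genes, with a highest value 14.5 times the lowest and an SD of 1.10 in log2(TPM + 1) over the 9 cells. Cdc25a exceeded Wee1 in 8 of 9 cells, with a ratio of TPM from 1.32 to 7.10 in those cells and 0.81 in embryo 2 cell 8. Wee1 lies inside the antisense gene 1600010M07Rik, with which it shares 0 exon bases and which had 3.71 to 36.0 TPM.

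In the ATM arm, Atm (ENSMUSG00000034218.16, chr9:53439149-53536740, minus strand) was the steadiest of the 10 genes. It had 35.9, 38.0 and 22.3 TPM in embryo 1 and 18.0, 22.4 and 33.0 TPM as lowest, median and highest in embryo 2, an SD of 0.37 in log2(TPM + 1) over 9 cells. Atm exceeded Atr in 9 of 9 cells, by 1.10-fold to 13.2-fold. Chek2 (ENSMUSG00000029521.7, chr5:110839979-110874145, plus strand), the kinase that ATM activates, had 649.8, 314 and 506 TPM in embryo 1 and 269.5, 429.6 and 599.8 TPM in embryo 2. Its gene level was 5.48-fold to 33.0-fold that of Chek1 in the same cell, but most of it was assigned to a short noncoding model described below.

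Of the p53 genes, Trp53 (ENSMUSG00000059552.13, chr11:69580359-69591873, plus strand) had 30.3, 13.2 and 18.3 TPM in embryo 1 and 8.82, 17.1 and 35.9 TPM as lowest, median and highest in embryo 2. Its main coding model shares 382 of its 1742 words of 30 bases with the pseudogene Trp53-ps, which was listed at 0 in all 9 cells. Mdm2 (ENSMUSG00000020184.15, chr10:117688875-117710758, minus strand), the ligase that degrades p53, had 24.4, 6.48 and 39.96 TPM in embryo 1 and 24.5, 48.5 and 68.0 TPM in embryo 2. Cdkn1a (ENSMUSG00000023067.14, chr17:29090976-29100727, plus strand), encoding p21, had 25.7, 18.96 and 32.3 TPM in embryo 1 and 9.21, 19.4 and 79.7 TPM in embryo 2. Cdkn1a was highest in embryo 2 cell 2, the cell in which Trp53 was also highest. The next highest Cdkn1a, 45.7 TPM in embryo 2 cell 6, came with 11.1 TPM of Trp53. Over the 9 cells the ratio of Cdkn1a to Trp53 ran from 0.67 to 4.11. By gene level Mdm2 exceeded Trp53 in 7 of 9 cells, with a ratio of 0.49 in embryo 1 cell 6 and 6.38 in embryo 2 cell 8. On coding models, described below, this order was turned around. There Mdm2 had 0 to 16.4 TPM and Trp53 7.76 to 35.1 TPM, and Mdm2 was higher only in embryo 2 cell 5.

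Embryo 2, with most bins replicated, was compared with embryo 1 as the mean of log2(TPM + 1) in embryo 2 minus that in embryo 1. Mdm2 showed the largest difference, 1.23 with a pooled SD between cells of 0.84, which is 2.34-fold on the scale of TPM + 1. Of the 10 genes it alone was at least 2-fold higher in embryo 2, and 0 were at least 2-fold lower. Among all 13648 genes, 7.69% were at least 2-fold higher and 10.7% at least 2-fold lower, so 1 of 10 is close to the background. The Mdm2 difference was 0.94 within numbers 11 to 17 and 1.37 within numbers 20 to 25, and embryo 1 cell 7 (39.96 TPM) lay above 2 of the 6 embryo 2 cells. It rested on embryo 1 cell 6 (6.48 TPM): without that cell it fell to 0.52, or 1.44-fold, with a pooled SD of 0.57, so that it passed neither 2-fold nor the pooled SD.

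The other 9 genes differed by -0.63 (Atr) to 0.50 (Wee1). With all cells, Mdm2 and, by a margin of 0.01, Atm (-0.36, pooled SD 0.35) had a difference larger than the pooled SD. That of Atm was below it after scaling to nuclear genes (-0.27, pooled SD 0.34) and with any of 6 of the 9 cells left out, among them embryo 1 cell 1 (-0.26, pooled SD 0.36) and cell 6 (-0.23, pooled SD 0.35). Atm was 1.29-fold higher in embryo 1 on the TPM + 1 scale, with 35.9, 38.0 and 22.3 TPM against 18.0 to 33.0. Chek1 differed by 0.12, Cdc25a by -0.10, Chek2 by -0.12, Trp53 by -0.14 and Cdkn1a by -0.16, each below its pooled SD. The median over the 10 genes was -0.13, beside -0.04 over all genes. None of the 10 had all embryo 2 cells above, or all below, the embryo 1 cells, against 0.843% of all genes above and 2.51% below. The exception came with embryo 1 cell 7 left out, when Mdm2 lay above and Atm below without overlap. For Mdm2 the margin was 24.46 TPM (embryo 2 cell 6) against 24.42 TPM (embryo 1 cell 1), and for Atm 33.0 against 35.9 TPM. The shares of all genes are for all 9 cells, and none was computed with embryo 1 cell 7 left out.

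**Figure D2:**
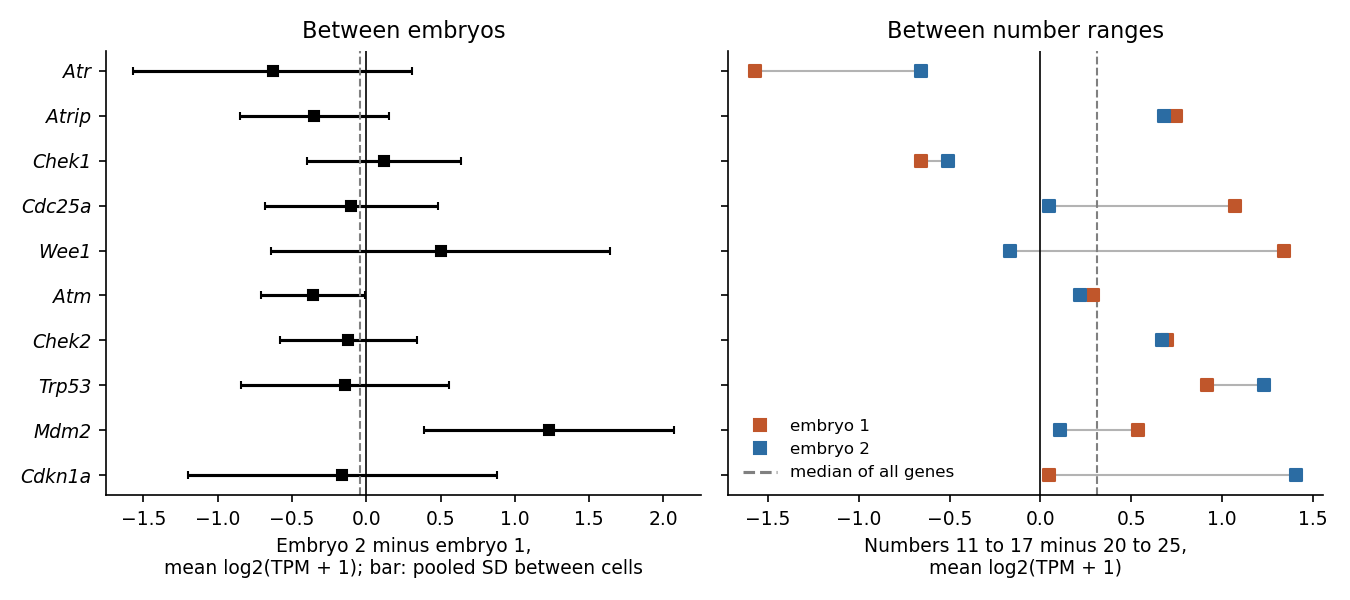
Left, embryo 2 minus embryo 1 in mean log2(TPM + 1) for each gene, with bars of 1 pooled SD between cells of an embryo; right, library numbers 11 to 17 minus 20 to 25 within embryo 1 (orange) and embryo 2 (blue). Dashed lines mark the median of all 13648 genes (-0.04 and 0.31); only the Mdm2 and Atm bars on the left stay clear of 0, that of Atm by 0.01.

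Within embryo 2, cell 6 had replicated least (62.4%, against 74.2 to 80.5% in the other 5). It held the lowest level of 3 checkpoint genes: Wee1, at 3.18 TPM against 12.9 to 46.0 in the other 5 cells, Mdm2, at 24.5 against 33.4 to 68.0, and Cdc25a, at 22.6 against 27.3 to 55.8. No gene of the 10 was highest in this cell. Over all genes, 33.1% lay outside the range of the other 5 cells, so 3 of 10 does not stand out. Atr, Chek1, Chek2, Atm, Trp53, Atrip and Cdkn1a lay inside that range. The 2 cells with the highest Wee1, cell 8 (46.0 TPM) and cell 7 (36.8 TPM), were also the most replicated ones, at 78.7% and 80.5%. This gives 6 cells of 1 embryo, and cell 6 also had the most bins without data, 1264 against 107 to 181.

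**Figure D3:**
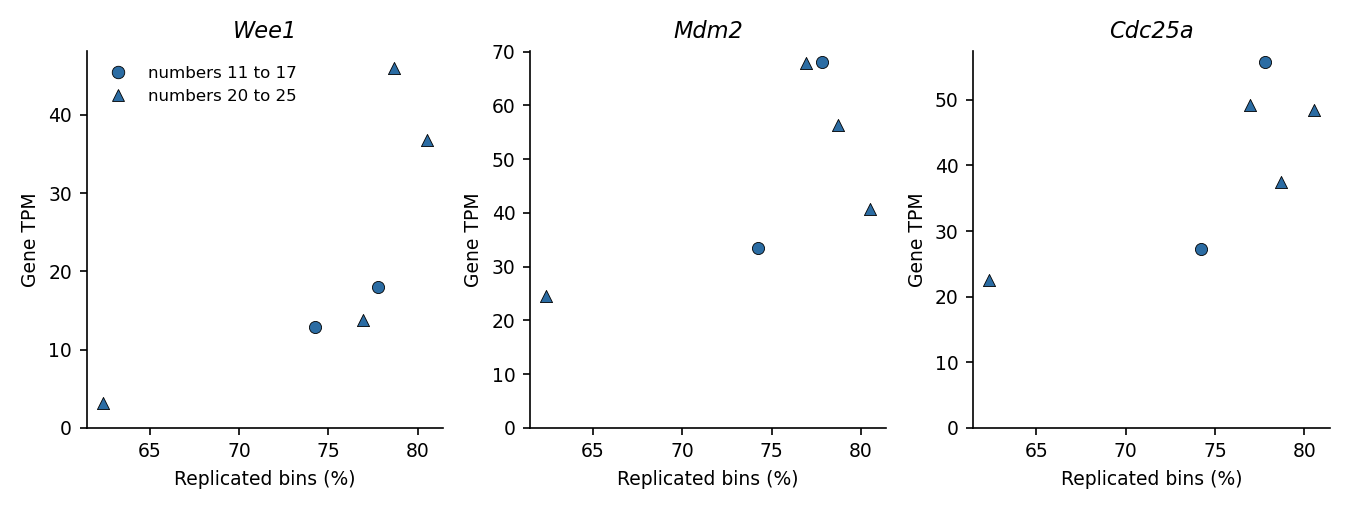
Gene TPM of Wee1, Mdm2 and Cdc25a against the percent of replicated 40-kb bins in the 6 cells of embryo 2, with circles for library numbers 11 to 17 and triangles for 20 to 25. The least replicated cell, at 62.4%, holds the lowest value of each gene (3.18, 24.5 and 22.6 TPM).

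Levels were also compared between the library number ranges. Over the 10 genes, the median difference in log2(TPM + 1) between numbers 11 to 17 and 20 to 25, averaged over the embryos, was 0.57, beside 0.31 over all genes. The excess stood in embryo 1, where 11 to 17 is 1 cell (0.62, beside 0.29 over all genes), and was turned around in embryo 2 (0.16, beside 0.26). Trp53 and Chek2 had all 3 cells of 11 to 17 above all 6 of 20 to 25, as did 6.13% of all genes. Trp53 stood at 28.1 to 35.9 TPM against 8.82 to 20.1, a log2 difference of 0.92 in embryo 1 and 1.23 in embryo 2. Chek2 stood at 578 to 649.8 TPM against 269.5 to 506, but overlapped once each cell was scaled to its median gene. The opposite order, all 3 cells below, held for 0 of the 10 and for 1.24% of all genes. Atr and Chek1 had lower levels in 11 to 17, by -1.12 and -0.59 on average, and also after scaling to nuclear genes or to the median gene. On coding models these became -0.24 and 0.14. The difference of Atm (0.26) became -0.09 and that of Mdm2 (0.32) became -0.03 with cells scaled to their median gene, and the other 6 genes stayed higher in 11 to 17. Atr had 3.18 to 3.70 TPM there and 2.50 to 19.6 TPM in 20 to 25. The sign was the same in both embryos for 9 of 10 genes, Wee1 (1.34 and -0.17) being the other one. The median over all genes was also positive in both embryos (0.29 and 0.26), and the share of all genes with a matching sign was not computed. Beside those medians, Cdc25a, Wee1, Mdm2 and Cdkn1a lay above in 1 embryo and below in the other. The labels do not say what the ranges are, but the sample list of the study places cells of 11 to 17 under its scRR3 version, with the larger lysis volume, and those of 20 to 25 under scRR1, which it describes as reading fewer transcripts of hand-picked cells and favouring their 3′ ends. Number range and protocol version therefore cannot be told apart, here and in the shares of transcript models.

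By the transcript estimates, 5 of the 10 genes had under 50% of their TPM on coding models, as did 21.9% of protein-coding genes with a mean above 1 TPM. How reads shared between models were divided could not be checked. The 10 genes have 70 transcript models, and the models sum to the gene TPM. Models annotated as protein coding held 99.6% of the TPM of Cdkn1a, 96.9% of Cdc25a, 95.8% of Trp53, 100% of Wee1 (1 model) and 76.5% of Atm. They held 44.5% of Atr, 32.5% of Chek1, 17.8% of Chek2, 13.9% of Mdm2 and 6.8% of Atrip. Of the 10496 protein-coding genes with a mean above 1 TPM, 8.3% had a coding share under 20%, the level that Chek2, Mdm2 and Atrip did not reach, and the median share was 90.2%. TPM divides by length, so the same number of bases read weighs more on a short model. Weighted by TPM times length, the coding share was 98.4% for Atm, 82.8% for Atr and 49.1% for Chek2, and stayed at 34.1% for Chek1, 16.8% for Mdm2 and 8.6% for Atrip.

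**Figure D4:**
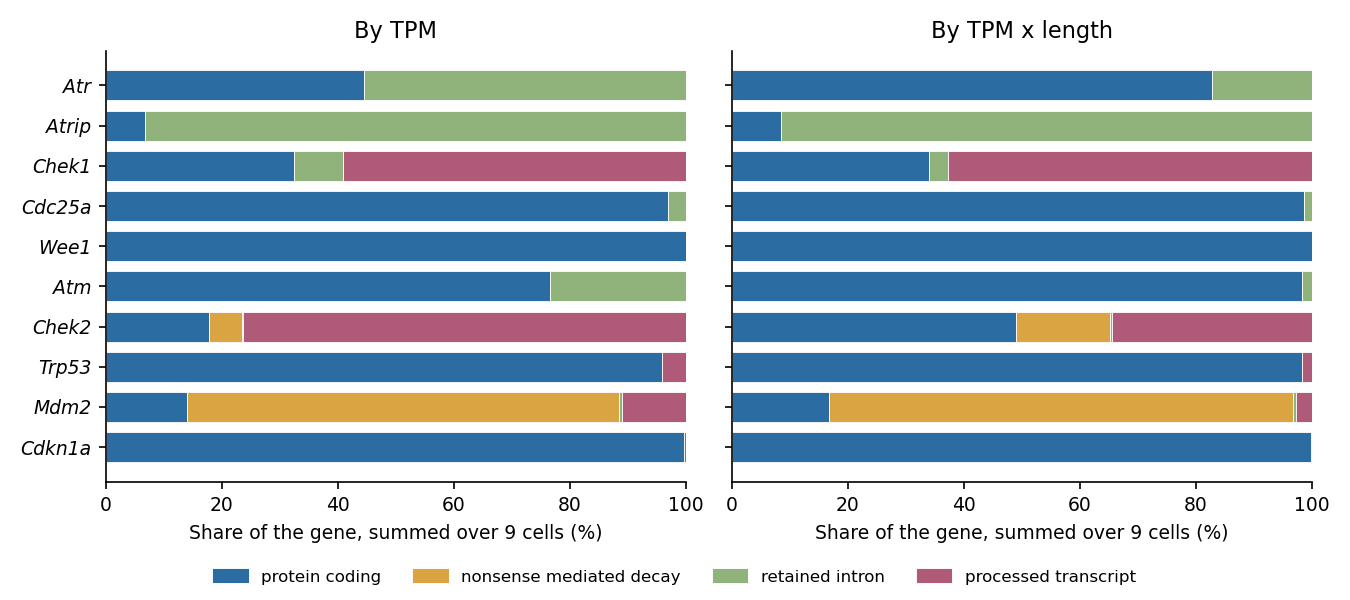
Share of each gene in 4 annotated transcript classes, summed over the 9 cells, by TPM (left) and by TPM times transcript length (right), in percent. Chek2 moves from 17.8 to 49.1% coding with the weighting, while Atrip (6.8 and 8.6%) and Mdm2 (13.9 and 16.8%) stay mostly on other models.

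For Chek2, 76.3% of the TPM lay on a noncoding processed transcript of 341 bases and 2 exons (ENSMUST00000196650.1), called the short model here. It had 533, 224 and 433 TPM in embryo 1 cells 1, 6 and 7, and 148, 309.7 and 507 TPM as lowest, median and highest in embryo 2. The full-length coding model (ENSMUST00000066160.2, 2276 bases and 15 exons) had 92.9, 38.7 and 12.7 TPM in embryo 1 and 27.96, 90.7 and 136 TPM in embryo 2. The first exon of the short model lies within exons of coding models. The second lies in a Chek2 intron and in no other Chek2 model, and the RefSeq genome marks 176 of its 185 bases as repeat. Of the 156 words of 30 bases in this exon, 115 (73.7%) also stand in transcripts of other genes, 2248 genes in all, whereas 0 of the 127 words of the first exon do. In the full-length coding model the share is 4.2%. How far reads from other copies of the repeat entered the Chek2 value was not tested.

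The choice of model changed what was seen for Chek2. The short model alone had all 3 cells of numbers 11 to 17 (457 to 533 TPM) above all 6 of 20 to 25 (148 to 433 TPM), whereas the full-length coding model overlapped, with 70.1 to 92.9 TPM against 12.7 to 136. The embryo difference was -0.12 by gene and 1.11, with a pooled SD of 1.06, by the sum of coding models. On that sum Chek2 still had the highest mean of the 10 genes, 82.0 ± 45.3 TPM (SD, n = 9 cells), followed by Cdc25a with 40.4 ± 14.8. These means differed by less than the Chek2 SD. Chek2 was below Cdkn1a in embryo 1 cell 7 (12.7 against 32.3 TPM) and embryo 2 cell 2 (78.8 against 79.7 TPM). It was below Wee1 in embryo 2 cell 8 (27.96 against 46.0 TPM).

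**Figure D5:**
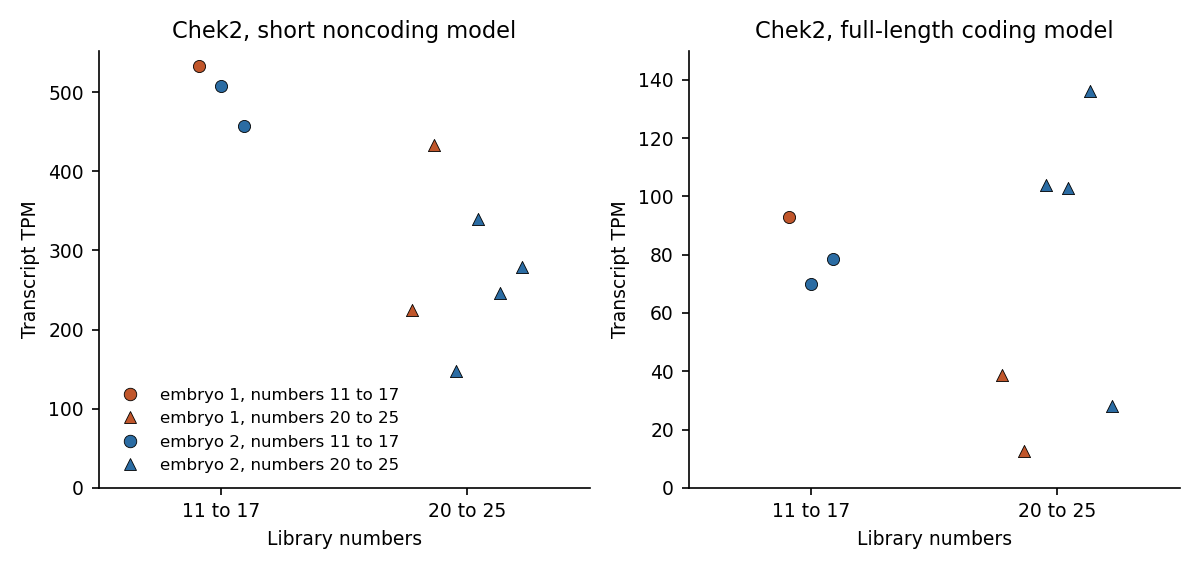
Transcript TPM of the short noncoding model (left) and the full-length coding model (right) of Chek2 in the 9 cells, by library number range and embryo. The short model separates the ranges (457 to 533 against 148 to 433 TPM), and the coding model does not (70.1 to 92.9 against 12.7 to 136 TPM).

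For Atrip, 93.0% of the TPM lay on a retained-intron model of 1280 bases (ENSMUST00000161163.2), 87.9 to 98.4% in single cells. It had 34.99 to 95.6 TPM, whereas the coding models together had 1.25 to 9.20 TPM. The model starts inside an intron, its other exons lie within exons of coding models and 621 of the 758 bases of its first exon lie outside every coding model. The border between its intronic and exonic bases tells this model from spliced Atrip mRNA. Unspliced Atrip RNA, which the study says its method captures in theory, would hold the same border, and which of these was read was not tested. The border is shown as the minus strand of chr9:109061639-109061758 in GRCm38, with intronic bases in capitals and exonic ones in lower case:

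Atrip retained-intron model, border: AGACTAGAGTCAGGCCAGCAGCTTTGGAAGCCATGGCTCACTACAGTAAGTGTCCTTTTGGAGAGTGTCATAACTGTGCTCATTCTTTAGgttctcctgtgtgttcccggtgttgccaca

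None of these 120 bases are marked as repeat, but 321 bases of the 758 are, and 12.5% of the words of the whole model stand in other genes. On coding models Atrip no longer ranked second, with 4.48 ± 2.87 TPM (SD, n = 9 cells), close to Atr at 3.34 ± 2.48. The Atrip embryo difference was -0.35 by gene and -0.76 by coding models, with pooled SDs of 0.50 and 0.72. That of Atr went from -0.63 to 0.22 (pooled SD 0.99).

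For Mdm2, 74.6% lay on a model of 2769 bases annotated for nonsense-mediated decay (ENSMUST00000155285.7), 6.48 to 50.5 TPM. Both full-length coding models together were listed at 0 in 3 of 9 cells and reached 16.4 TPM in embryo 2 cell 5. On them the Mdm2 embryo difference was 1.03 with a pooled SD of 1.70, so it no longer passed the spread between cells, whereas that of Atm was -0.49 with a pooled SD of 0.41. For Chek1, 58.0% lay on a processed transcript of 2142 bases and 12 exons (ENSMUST00000174105.7), 8.52 to 34.7 TPM, and coding models had 2.91 to 23.8 TPM. 0 words of this Chek1 model and 1.5% of those of the Mdm2 model stand in other genes. Both lie wholly within exons of coding models, with 0 bases outside them, and since the tables keep no read counts, how the reads they share with coding models were divided could not be checked.

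The loci themselves were read next. The replication table had bins over 8 of the 10 genes, 16 bins in all. Mdm2 lies on chromosome 10, which had no bins, and Atrip in a gap of the table. In embryo 2, 47 of 48 gene and cell pairs were replicated. Hence 7 of the 8 genes were replicated in all 6 cells, as were 48.7% of the bins scored in each of the 6. The exception was Trp53 in cell 6, unreplicated at 11.1 TPM, within the 8.82 to 35.9 TPM of the 5 cells with Trp53 replicated. The bins before and after the Atrip gap were replicated in 5 of 6 cells and had no state in cell 5. In embryo 1, 1 of 24 pairs was called replicated, Wee1 in cell 1, a cell with 43.2% of its chromosome 7 bins called replicated and 0.54% on chromosome 9. A copy number change of part of chromosome 7 cannot be told apart from replication there, and the study notes chromosomal abnormalities in cells of this embryo. Wee1 had 22.01 TPM in that cell, against 10.1 and 6.41 TPM in the cells with Wee1 unreplicated. With so few pairs in the minority state, level and copy number could not be compared within an embryo. Using the bin with the start site gave 47 pairs as well. Atr, Atrip, Chek1, Cdc25a and Atm share chromosome 9, so their states are not independent.

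The other genes of the pathway were described in the same way. Of 13 sensors and mediators of the ATR branch, 11 were above 1 TPM in every cell, beside 52.9% of all genes. Of these 13, 0 separated the embryos, beside 0.843% of all genes above and 2.51% below. None passed 2-fold, beside 7.69% of all genes higher and 10.7% lower. The fork protection factor Tipin was highest, at 67.9, 288 and 147 TPM in embryo 1 and 235, 257 and 343 TPM as lowest, median and highest in embryo 2. Rad17, which loads the 9-1-1 clamp, had the most positive difference (0.92, pooled SD 0.87) and Clspn, the adaptor of CHK1, the most negative (-0.79, pooled SD 0.99). Of 10 genes for double strand break signalling, all 10 were above 1 TPM in every cell and 0 separated the embryos, beside the same shares of all genes. The ubiquitin ligase gene Rnf8 was highest, from 32.8 to 105 TPM in embryo 1 cells, and from 31.5 to 122 TPM in those of embryo 2. Brca1 had a difference of 0.66 (pooled SD 0.91), and Rad50 of -0.94 (pooled SD 1.04), with 53.8 TPM in embryo 1 cell 6 and at most 10.5 TPM elsewhere.

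Of 11 genes that control CDK activity downstream of CHK1, 9 were above 1 TPM in every cell, beside 52.9% of all genes. Cdk1 was highest, from 241 to 540.0 TPM in embryo 1 cells, and from 268 to 882 TPM in those of embryo 2. Cdc25c (1.38, pooled SD 1.16), Cdk2 (1.06, pooled SD 0.81) and Ccne2 (1.04, pooled SD 1.12) were at least 2-fold higher in embryo 2, 3 of 11 beside 7.69% of all genes, and all 3 overlapped between the embryos. None was 2-fold lower, beside 10.7% of all genes. Among genes with a mean of at least 5 TPM, the mitotic kinase gene Plk1 had the most negative difference, -0.33 with a pooled SD of 0.58.

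Of 10 regulators of p53, 9 had a mean above 1 TPM and 7 were above 1 TPM in every cell, beside 52.9% of all genes. Of those 9, 0 separated the embryos, beside 0.843% of all genes above and 2.51% below. The ribosomal protein gene Rpl23, whose product binds MDM2, was highest at 729 to 1817 TPM. Cop1, another ligase of p53, differed by 0.63 (pooled SD 0.63), and Rpl11 by -0.46 (pooled SD 0.26).

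Of 20 p53 target genes beside Mdm2 and Cdkn1a, 18 had a mean above 1 TPM. Of those 18, 14 were above 1 TPM in every cell, beside 52.9% of all genes. Ccng1, encoding cyclin G1, separated the embryos, with 13.3, 20.1 and 22 TPM in embryo 1 and 41.9, 52.0 and 81.7 TPM as lowest, median and highest in embryo 2, a difference of 1.57 with a pooled SD of 0.36. Bax, encoding a pro-apoptotic BCL2 family member, separated them in the other direction, with 176, 108 and 115 TPM in embryo 1 and 59.3, 70.7 and 104 TPM in embryo 2, a difference of -0.80 with a pooled SD of 0.33. These are 1 gene of 18 in each direction, beside 0.843% of all genes above and 2.51% below. Bax overlapped once cells were scaled to their median gene, whereas Ccng1 did not. Plk2 (1.47, pooled SD 1.32) was also past 2-fold higher and Gadd45a (-1.18, pooled SD 0.89) past 2-fold lower, both at 0 in cells of each embryo. With Ccng1, 2 of 18 were thus past 2-fold higher and 1 of 18 lower, beside 7.69% and 10.7% of all genes. Ei24 was highest, at 60.9 to 211 TPM. The median difference over the 18 was 0.17, beside 1.23 for Mdm2, -0.16 for Cdkn1a and -0.04 over all genes.

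Of 6 other CDK inhibitors, 2 had a mean above 1 TPM and only Cdkn2d, at 1.67 to 13.8 TPM, was above 1 TPM in every cell, with a difference of -0.05 (pooled SD 0.87). Cdkn2a was listed at 0 in all 9 cells. Cdkn1a at 9.21 to 79.7 TPM was thus above the summed level of these 6 in 9 of 9 cells (sums of 6.13 to 14 TPM for embryo 1, 2.89 to 18.0 for embryo 2).

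For the 2 checkpoint genes with the widest spread, the genes with the most similar pattern over the 9 cells were sought among 6768 genes with a mean of at least 10 TPM. For Wee1 these were Gm32856, a long noncoding RNA (Pearson's r = 0.962 of log2(TPM + 1), n = 9 cells), Stx16 (r = 0.950) and Pkn2 (r = 0.948). For Mdm2 these were Vpreb3 (r = 0.920), Lss (r = 0.919) and Fh1 (r = 0.910). These are the highest of 6768 values each over cells that share 2 embryos, and 9 genes passed 0.9 for each of the pair, so they describe these cells only.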

How the data were processed

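scRR-seq reads RNA (by RamDA-seq) and DNA replication state (by scRepli-seq) from 1 cell. For RNA, the authors aligned reads, set to a common number per cell, to mm10 with Hisat and deposited RSEM estimates against GENCODE M25 as TPM, which sum to the same total in each cell, for 55487 genes and 142699 transcripts. For DNA, they aligned reads with BWA 0.7.17-r1188 (submitters' processing notes), called states with AneuFinder and deposited a score of 1 (replicated), -1 (unreplicated) or 0 (no data) for 51976 bins of 40 kb. Neither table keeps read depth, so no counting interval was computed. Each table also held 14 columns of no sample in this series, which were not used. The 9 RNA headers carried the same embryo and cell, so columns were assigned by their closing number, which matches 1 title each.

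Symbols came from the reference tables (55141 of 55487 identifiers had one), and positions, exons and transcript classes from GENCODE M21 of the same build. Differences were taken on log2(TPM + 1), which understates changes at low levels. The background was the 13648 genes with a mean above 1 TPM. A gene separated 2 sets of cells when their values did not overlap. The pooled SD is that of cells within embryos. A gene took the state of most of its bins. Words are the 30-base stretches of a model, sought on both strands in all GENCODE M21 transcripts. The sequence and the repeat marks were read from the RefSeq genome, GRCm38.p6. The sequence of 1 Chek2 exon is not reported here. No p-value was computed, since each embryo is 1 replicate. Named genes were the 10 members and, per list, the gene with the highest mean and, at a mean of at least 5 TPM, the most positive and the most negative embryo difference, with the 3 most similar genes for each of the 2 most variable members. Ccne2, Cdk2, Plk2, Gadd45a, Cdkn2a, Trex1, Trp53-ps and the antisense genes, single markers and all transcript models were named after their values were seen. The members, lists and measures were chosen with earlier results of these data known. Alternatives were another pseudocount, scaling to nuclear genes or to the median gene, leaving out each cell, single number ranges and coding transcripts only. The functions were tested on simulated data. Python 3.11.15, numpy 2.4.6 and pandas 2.3.3 were used, with matplotlib 3.10.9 for plots.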

Additional observations from a re-analysis of the deposited data

Results flagged for a closer look

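Among 41 values of the 6 embryo 2 cells (the replication score, gene, coding and transcript levels), 3 had a cell far from the others by Dixon's criterion, which flags about 1 in 20 groups by chance. The replication score of cell 6, 62.4%, lay apart from the other 5, with a gap of 0.654 of the whole range. Cop1 stood apart in cell 8, at 343 TPM against 176 to 217 in the other 5 (0.686 of the range of log2(TPM + 1)), and Tipin in cell 7, at 343 TPM against 235 to 267 (0.658 of the range). None of the 10 checkpoint genes had such a cell, whether by gene or by coding transcripts.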

How the results depend on the processing

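All 10 genes stayed above 0.5 TPM in every cell and 8 above 5 TPM, Atr and Wee1 being the other 2. No share over all genes was computed for these cut-offs. On coding transcripts, Atr was above 1 TPM in 7 of 9 cells and Mdm2 in 6 of 9, and the other genes in all 9. The median embryo difference over the 10 genes, -0.13, ran from -0.277 to 0.008 with single cells left out and was 0.084 for coding transcripts. The median number range difference, 0.573, became 0.226 with each cell scaled to its median gene, a scaling that moves the median of all genes from 0.31 to 0.01, and 0.165 within embryo 2, below the 0.26 of all genes there. Leaving out embryo 1 cell 1, the sole cell of 11 to 17 in that embryo, is the same calculation, so its 0.165 is not a separate check. With other single cells left out, this median ran from 0.306 (without embryo 2 cell 2) to 0.659 (without embryo 2 cell 3). The count of genes that separated the embryos was 0 to 2 over the cells left out, 2 (Mdm2 and Atm) only without embryo 1 cell 7. No share over all genes was computed for that setting. The count outside the range of the other embryo 2 cells went from 3 to 6 when cell 6 was set beside 3 cells (numbers 20 to 25) instead of 5. A range of fewer cells leaves more values outside it, and the share over all genes, 33.1% for 5 cells, was not computed for 3. The count that separated the number ranges, an alternative set added after seeing the data, went from 2 to 1 (Trp53) by median gene scaling and by coding transcripts. Of 150 alternatives for single embryo differences, 148 moved by less than the pooled SD. Those that moved further were Cdc25a within numbers 11 to 17, -0.78 against -0.10, and Chek2 by coding transcripts, 1.11 against -0.12. Only Mdm2 and Atm had a main difference larger than that SD, so for the other genes a difference could vanish without counting as moved. The fall of Mdm2 from 1.23 to 0.52 without embryo 1 cell 6 also did not count. The 148 therefore does not show that the differences are stable. Mdm2 (0.52 to 1.75), Atm (-0.60 to -0.23) and Atrip kept their sign in all 15 alternatives each, and the other 7 genes changed sign in 1 to 4 of 15. No paired analysis was possible because the cell numbers name different blastomeres in the 2 embryos and no test was made. With no read depth kept, the error of low values such as those of Atr is unknown.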
